A study of Rattus norvegicus with 5 samples.

Results

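Chemokines and interleukins are the signalling proteins by which cells of the ocular surface and white blood cells call to each other. They were measured here as 129 members of 20340 genes in all. The members are the genes whose symbols begin with a chemokine, chemokine receptor or interleukin stem followed by a digit. The lymphatic chemokine Ccl21 was left out, and the 129 include 5 effectors of inflammation (Tnf, Nos2, Ptgs2, Nlrp3 and Casp1). The members were chosen by a rule on names, set with earlier results of these data known. The corneas came from 2 transgenic P1 hMR rats, which carry and overexpress human NR3C2, the gene for the mineralocorticoid receptor, and from 3 wild-type rats. All 5 rats were males of the Sprague-Dawley strain at the age of 6 months, and no injury or drug is named for either group. The promoter of the transgene and the number of founder lines are not given in the sources used here, and each library is read as 1 cornea sample, since nothing says whether tissue was pooled. Human NR3C2 had 1094 and 1146 counts in transgenic corneas 1 and 2, against 0, 0 and 0 in wild-type corneas 1 to 3, as the labels say.

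Chemokines are small secreted proteins that steer white blood cells through receptors coupled to G proteins. Interleukins act through receptors of separate families: IL-1 and its relatives through MyD88 and NF-kappaB, and IL-6, IL-12, IL-4 and IL-10 class cytokines through JAK kinases and STAT factors. In the cornea the epithelium stores IL-1 family cytokines that are set free when cells are damaged, and the few resident leukocytes are mainly macrophages and dendritic cells. The mineralocorticoid receptor is a steroid receptor best known for salt balance, and its activation has been tied to inflammation in heart and vessel.

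The libraries held 26280695 and 30449686 counts in transgenic corneas and 27692222, 20874030 and 21920053 in wild-type corneas, and the members took 0.159% and 0.179% of counts in transgenic and 0.184%, 0.172% and 0.160% in wild-type corneas. The 7 keratocyte markers in the table summed to 2971 and 3161 CPM (counts scaled to library size, not to transcript length) in transgenic corneas and to 2500, 2645 and 2436 CPM in wild-type ones, with 5 of the 7 higher in both transgenic corneas than in any wild-type one. The same held for 4 of the 6 corneal endothelial markers, against 12% of all genes tested. None of either marker list passed the test. The 5 pan-leukocyte markers summed to 6.09 and 9.71 CPM in transgenic corneas and to between 7.01 and 7.94 CPM in wild-type ones. Of the defining B cell markers, Ms4a1, Cd79b and Cr2 were at 0 in all 5 corneas. The 8 T cell markers in the table summed to 0.887 and 0.860 CPM in transgenic corneas against 1.30, 1.57 and 1.55 CPM in wild-type ones. Most of each sum was Lck, the only T cell marker with enough counts to be tested. Pigment-cell markers summed to 75.1 and 144.8 CPM in transgenic corneas and 42.8, 6.51 and 28.5 CPM in wild-type ones, and lens markers to 13.8 and 8.09 CPM and to 106.8, 26.3 and 20.3 CPM. The part of other tissues in the results below was not tested. In whole corneas, fewer cells of a type and less RNA per cell cannot be told apart.

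No chemokine, interleukin or receptor gene passed the test of transgenic against wild-type corneas. Of the 129 members, 63 had enough counts to be tested, 47 had counts too low to test and 19 were at 0 in all 5 corneas. With edgeR's quasi-likelihood test and a threshold of 0.05 on the adjusted p, 0 of the 63 rose and 0 fell, and the lowest adjusted p was 0.686. Over all 13305 genes tested 0.00752% passed, which is the transgene alone. Without adjustment, 3 members (Il12a, Il23r and Il11ra1) had a p under 0.05, or 4.76% of those tested, against 6.33% of all genes; DESeq2 and limma voom also called 0 members, with 4 and 3 at an unadjusted p under 0.05. The median log2 fold change was -0.02 over the tested members, 29 of them higher and 34 lower in transgenic corneas, and -0.01 over all genes tested.

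**Figure D1:**
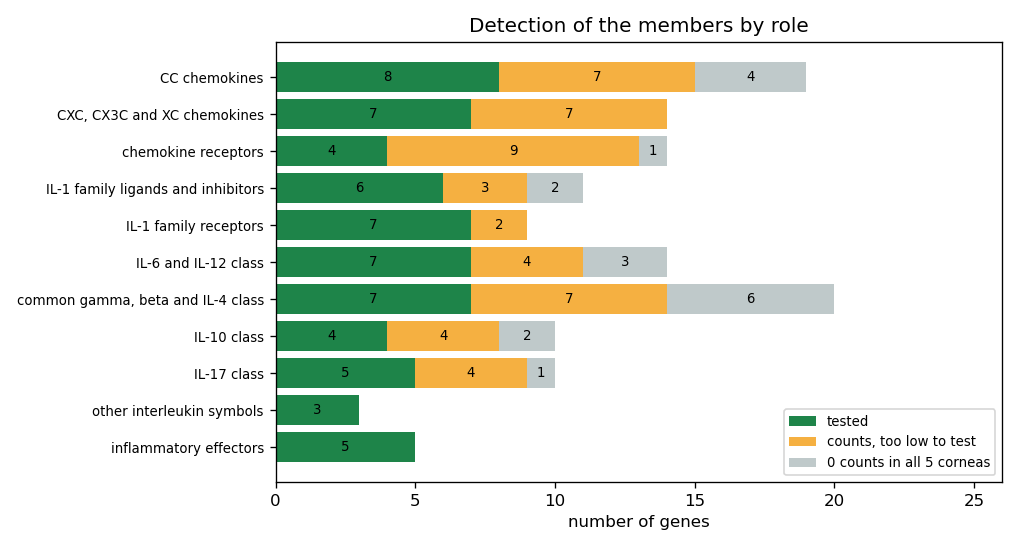
Number of genes in each role group that were tested, had counts too low to test or had 0 counts in all 5 corneas. Receptors of the IL-1 family were mostly measurable (7 of 9 tested), whereas 6 of 20 genes of the common gamma, beta and IL-4 class were at 0.

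The genotypes did not overlap in 11 of the 63 members, or 17.5%, against 22.7% of all genes tested. Ccl19, Ccr10, Il11ra1 and Il17rb were the higher ones in transgenic corneas, and Ccl28, Il12a, Il1rl1, Il1rn, Il23a, Il23r and Il2rg the lower ones. That share is under the one of genes in general. Il2rg, the common gamma chain of lymphocyte cytokine receptors, had 0.193 and 0.509 CPM in transgenic and 0.758, 0.538 and 0.683 CPM in wild-type corneas, and Il17rb, a receptor chain for IL-25, 1.12 and 1.15 CPM against 0.939, 0.636 and 1.05 CPM. The precision differed widely between members: the standard error (SE) of the log2 fold change ran from 0.096 to 1.05. The 95% interval lay wholly within a 2-fold change either way for 28 of the 63 members, and within a 1.5-fold change for 15. For the remaining members the interval reached past a 2-fold change, so a change of that size is not left out by these data.

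**Figure D2:**
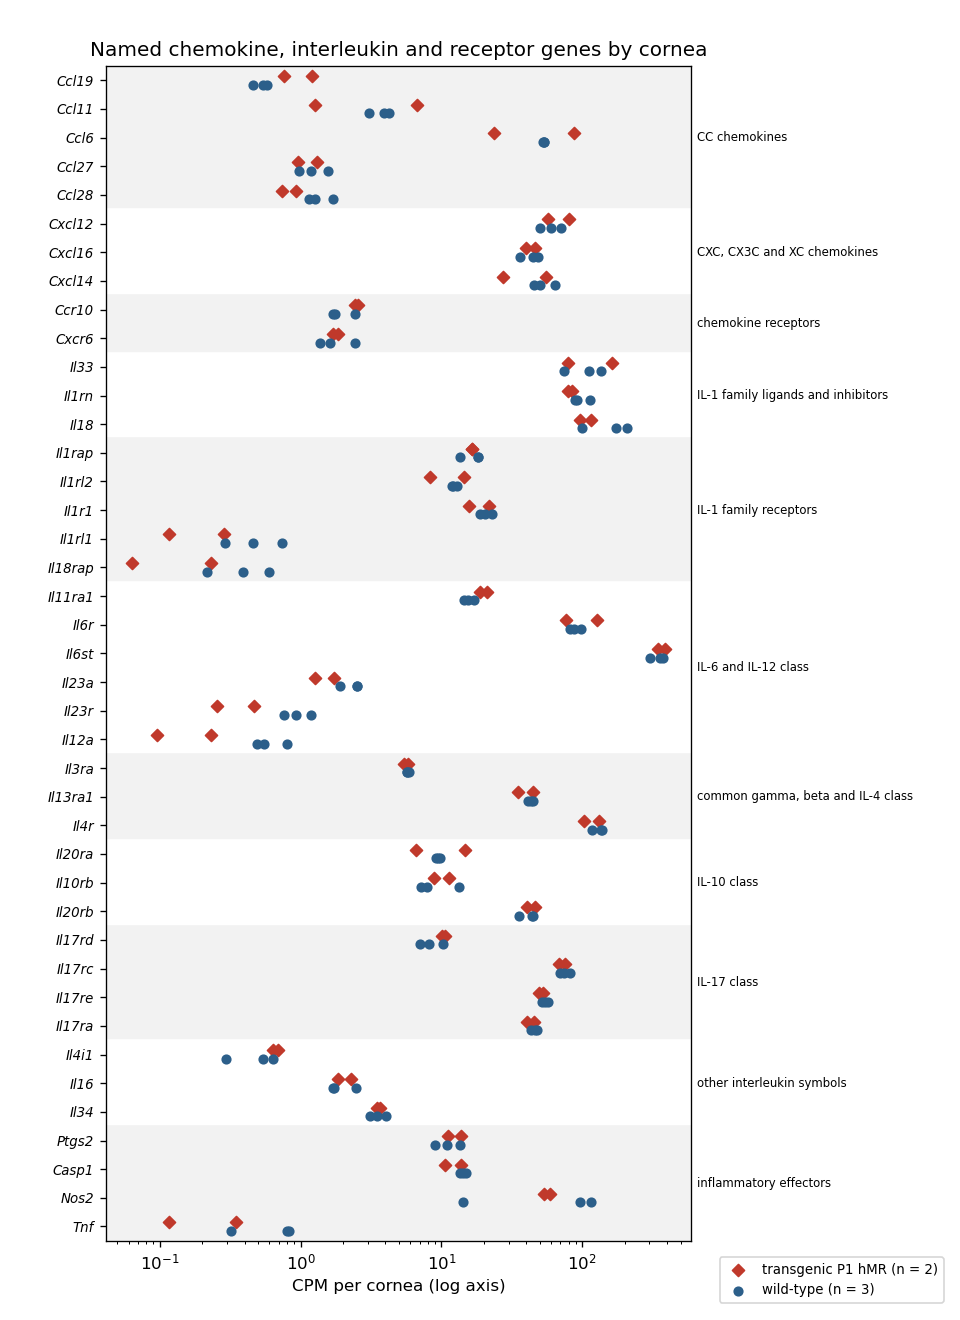
CPM of the 41 members described by value, on a log axis, with 1 point per cornea (diamonds, 2 transgenic; circles, 3 wild-type) and shading by role. The groups stand apart for Il12a and Il23r and overlap for most others, and the transgenic points of Ccl6 lie on either side of the 3 wild-type points at 53.0 to 53.9 CPM.

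Among CC chemokines, Ccl6 differed between the corneas of the transgenic group. Ccl6 is a chemokine of rodents that myeloid cells make in the mouse. It had 23.6 and 88.0 CPM in transgenic corneas 1 and 2, against 53.9, 53.0 and 53.6 CPM in wild-type corneas 1 to 3. The wild-type values lay within 1.02-fold of each other, while the transgenic values differed 3.72-fold and lay below and above them. The log2 fold change was 0.06 ± 0.62 (SE; edgeR adjusted p = 0.994), and it came to -1.18 (adjusted p = 0.00903) without transgenic cornea 2 and to 0.73 (adjusted p = 0.0456) without transgenic cornea 1. With 1 transgenic cornea left, these fits assume that it varies as the wild-type corneas do. Of the 14 macrophage and dendritic cell markers, 13 were higher in transgenic cornea 2 than in cornea 1, Cd68 being the exception, and the whole list summed to 80.5 and 86.8 CPM there and to 90.1, 88.7 and 77.4 CPM in wild-type corneas. Over all 13305 genes tested, 6692 were higher in transgenic cornea 2 than in cornea 1. Cd68, the highest of the list, was left out of a second sum after its values were seen. The other 13 markers summed to 33.4 and 56.7 CPM in transgenic and 41.4, 32.7 and 34.9 CPM in wild-type corneas. Their part in the Ccl6 values was not tested.

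Ccl11 (eotaxin), which attracts eosinophils and is made by fibroblasts, had 1.27 and 6.72 CPM in transgenic corneas, against 4.22, 3.08 and 3.92 CPM in wild-type corneas. As with Ccl6, transgenic cornea 1 was under and cornea 2 over all wild-type values (log2 fold change 0.10 ± 0.65, adjusted p = 0.986). Ccl19, a ligand that draws dendritic cells towards lymph nodes, had 1.195 and 0.764 CPM in transgenic corneas and 0.578, 0.538 and 0.455 CPM in wild-type corneas. Both transgenic values were higher than every wild-type value, on 10 to 31 counts per library (0.89 ± 0.47, adjusted p = 0.832).

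Ccl27 and Ccl28 are epithelial chemokines that share the receptor Ccr10. Ccl28 had 0.733 and 0.923 CPM in transgenic corneas and 1.16, 1.27 and 1.68 CPM in wild-type corneas, without overlap (-0.72 ± 0.41, adjusted p = 0.834). Ccl27 had 0.964 and 1.31 CPM in transgenic corneas and 0.9749, 1.57 and 1.18 CPM in wild-type corneas. Its groups overlapped (-0.12 ± 0.41). Their receptor gene Ccr10 had 2.54 and 2.42 CPM in transgenic corneas and 1.70, 1.76 and 2.41 CPM in wild-type corneas, with both transgenic values higher but the lower of them barely over wild-type cornea 3 (0.34 ± 0.31, adjusted p = 0.880).

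The CXC and CX3C chemokines of tissue cells were well covered and overlapped between the genotypes. Cxcl12, the ligand of Cxcr4, which stromal cells make, had 57.4 and 80.2 CPM in transgenic corneas against 70.3, 60.4 and 50.5 CPM in wild-type ones (0.19 ± 0.18, adjusted p = 0.895). Cxcl16, a chemokine held in the membrane that binds Cxcr6, had 39.7 and 46.0 CPM in transgenic and 48.7, 44.3 and 36.1 CPM in wild-type corneas. Its log2 fold change of -0.01 had a 95% interval of -0.32 to 0.30. Cxcl14, which epithelia make at rest, had 55.1 and 27.2 CPM in transgenic corneas and 64.5, 45.6 and 50.5 CPM in wild-type corneas. Transgenic cornea 2 was the lowest of the 5 (-0.38 ± 0.35, adjusted p = 0.894), and without it the log2 fold change was 0.04. The neutrophil-attracting chemokine Cxcl1 had 3.55 and 2.67 CPM in transgenic and 4.91, 3.18 and 3.96 CPM in wild-type corneas. Its near relative Cxcl2 was not tested, with 0 and 0 counts in transgenic and 13, 3 and 1 counts in wild-type corneas.

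Chemokine receptors of leukocytes were close to the limit of detection. Of the 14 receptor genes, 4 were tested, 9 had too few counts and Cxcr1 was at 0 in all 5 corneas. Cxcr6, the receptor for Cxcl16, had 1.70 and 1.85 CPM in transgenic and 1.62, 1.37 and 2.41 CPM in wild-type corneas. Its groups overlapped.

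In the IL-1 family 1 of the 6 tested ligands and inhibitors was higher in transgenic corneas and 5 were lower, none past the test. Il1rn, the antagonist that keeps IL-1 from its receptor, had 84.5 and 78.7 CPM in transgenic corneas and 112.8, 92.3 and 88.4 CPM in wild-type corneas. Every wild-type cornea was higher than either transgenic one, without passing the test (log2 fold change -0.26 ± 0.12, 95% interval -0.53 to 0.003, adjusted p = 0.791). Il18, an epithelial cytokine that caspase-1 cuts into its active form, had 115.9 and 96.7 CPM in transgenic corneas and 206.9, 172.9 and 100.4 CPM in wild-type corneas. Wild-type corneas 1 and 2 were higher than both transgenic corneas, and wild-type cornea 3 lay between them (-0.59 ± 0.34, adjusted p = 0.855). Without wild-type cornea 3 the log2 fold change was -0.84 (adjusted p = 0.164). Il33, a nuclear alarmin, had 79.4 and 162.9 CPM in transgenic and 74.5, 135.5 and 111.8 CPM in wild-type corneas, with wide spread in both groups (0.18 ± 0.43, adjusted p = 0.964). Il1a, whose product epithelial cells release on injury, was outside the rule for named genes and is given for its spread: it had 36.6 and 16.7 CPM in transgenic and 37.0, 38.6 and 22.4 CPM in wild-type corneas. Il1b, the form that macrophages secrete, was not tested, with 6 and 9 counts in transgenic and 6, 2 and 8 counts in wild-type corneas.

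**Figure D3:**
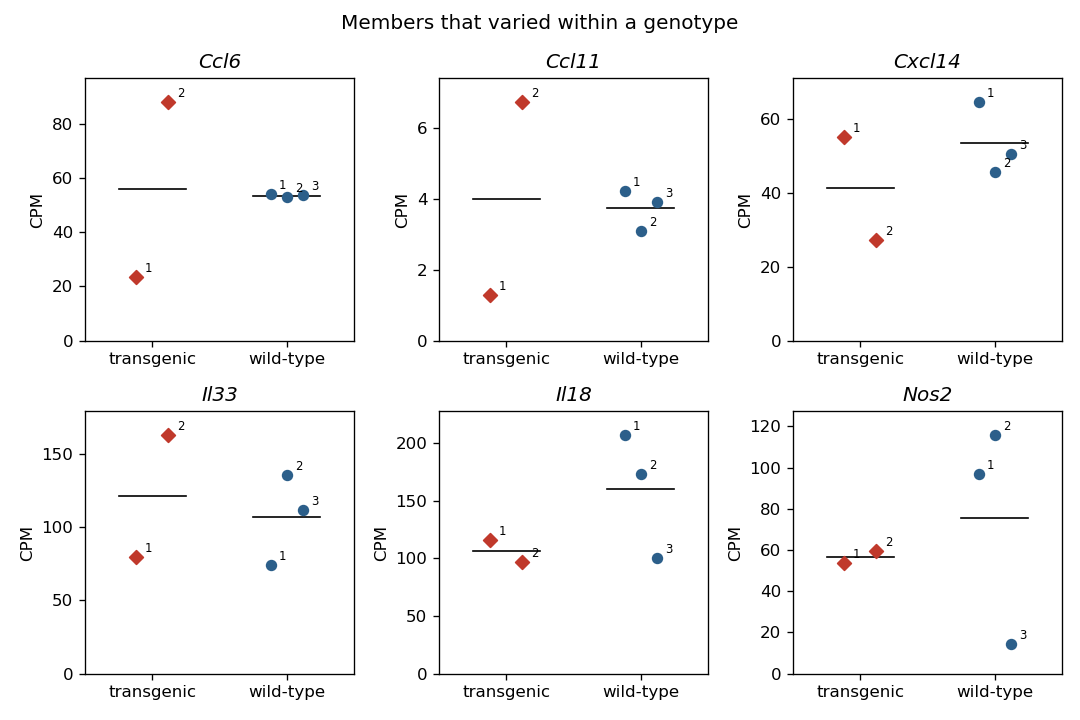
CPM of 6 members chosen after their values were seen for their spread within a genotype, with 1 numbered point per cornea and a line at the group mean. Among these 6, the transgenic corneas differ most for Ccl6 and Ccl11, and wild-type cornea 3 is the lowest of its group for Il18 and Nos2.

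Receptors of the IL-1 family overlapped between genotypes where they were well covered. Il1r1, the signalling receptor for IL-1, had 21.9 and 15.8 CPM in transgenic and 23.0, 18.7 and 20.2 CPM in wild-type corneas. Il1rap, the accessory chain shared by the family, had 16.39 and 16.43 CPM in transgenic and 13.5, 18.2 and 18.3 CPM in wild-type corneas, a log2 fold change of -0.02 with a 95% interval of -0.38 to 0.34. Il1rl2, the receptor for IL-36, had 14.5 and 8.28 CPM in transgenic and 12.1, 11.9 and 12.9 CPM in wild-type corneas, with the transgenic values on either side of the wild-type ones. Il1rl1 (ST2), the receptor for IL-33, had 0.116 and 0.287 CPM in transgenic and 0.289, 0.734 and 0.455 CPM in wild-type corneas, from 3 and 9 counts against 8 to 15. Il18rap, a chain of the IL-18 receptor on lymphocytes, had 6 and 2 counts in transgenic and 6, 8 and 13 counts in wild-type corneas. Neither of these sparse genes passed (adjusted p = 0.835 and 0.834).

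Of the IL-6 and IL-12 class, the members with the smallest p of the whole set came in 2 directions. IL-12 and IL-23 are relatives that share the subunit Il12b and that steer T cells. Il12a, the subunit particular to IL-12, had 0.231 and 0.0955 CPM in transgenic and 0.794, 0.489 and 0.546 CPM in wild-type corneas, or 6 and 3 counts against 22, 10 and 12. The groups did not overlap (log2 fold change -1.92 ± 0.67, unadjusted p = 0.0169, adjusted p = 0.686). Il23r, the IL-23 receptor of lymphocytes, had 0.463 and 0.255 CPM in transgenic and 0.758, 0.930 and 1.18 CPM in wild-type corneas, again without overlap (-1.42 ± 0.53, adjusted p = 0.731). Il23a, the subunit particular to IL-23, had 1.27 and 1.72 CPM in transgenic and 2.53, 2.496 and 1.91 CPM in wild-type corneas (-0.62 ± 0.34, adjusted p = 0.834). The shared subunit Il12b had 3 counts or fewer in every cornea and was not tested. The lower sum of T cell markers in transgenic corneas, given above, mostly followed 1 gene, Lck. It had 0.848 and 0.541 CPM in transgenic and 0.903, 1.03 and 1.18 CPM in wild-type corneas. The other T cell markers had 5 counts or fewer in every cornea, so the sum is a poor measure of T cells. The part of T cells in Il12a, Il23r and Il23a was not tested.

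Il11ra1, the chain that binds IL-11, had 18.9 and 21.0 CPM in transgenic and 17.2, 15.3 and 14.4 CPM in wild-type corneas. Both transgenic values were above all wild-type values (log2 fold change 0.35 ± 0.14, 95% interval 0.05 to 0.66), and the gene did not pass after adjustment (0.731, edgeR). Most keratocyte markers, given above, were higher in both transgenic corneas too, and their part in the Il11ra1 values was not tested. Il6st (gp130), the signalling chain for IL-6, IL-11 and their relatives, had 384.2 and 347.6 CPM in transgenic and 372.5, 302.6 and 354.5 CPM in wild-type corneas (0.09 ± 0.12, 95% interval -0.17 to 0.35). Il6r had 77.1 and 126.2 CPM in transgenic and 82.4, 88.0 and 98.0 CPM in wild-type corneas, with the transgenic corneas on either side. The ligand Il6 had 0 and 1 counts in transgenic and 0, 1 and 0 counts in wild-type corneas, and Il11 was at 0 in all 5.

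Of the 20 genes of the common gamma, beta and IL-4 class, 7 were tested, 3 higher and 4 lower in transgenic corneas, and none passed. Il4r, a receptor chain for IL-4 and IL-13, had 131.6 and 102.9 CPM in transgenic and 135.0, 138.4 and 118.2 CPM in wild-type corneas (-0.16 ± 0.12, adjusted p = 0.873). Its partner Il13ra1 had 34.8 and 44.4 CPM in transgenic and 44.4, 40.96 and 43.3 CPM in wild-type corneas, and Il3ra, a receptor chain for IL-3, had a log2 fold change of -0.04 ± 0.19. The ligands Il4, Il5, Il13, Il3, Il9 and Il21 were at 0 in all 5 corneas. A count of 0 allows up to 3 counts, or 0.0955 to 0.147 CPM depending on the library.

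Epithelial receptors for IL-17 varied little. Il17ra, the chain common to the family, had 45.3 and 40.3 CPM in transgenic and 46.5, 43.6 and 47.7 CPM in wild-type corneas, a log2 fold change of -0.10 with a 95% interval of -0.33 to 0.13. Il17rc, its partner for IL-17A and IL-17F, had 75.9 and 68.7 CPM in transgenic and 73.9, 81.7 and 69.3 CPM in wild-type corneas. Il17re, the receptor for IL-17C, had 52.9 and 49.3 CPM in transgenic and 52.0, 54.0 and 57.1 CPM in wild-type corneas. The intervals of Il17ra, Il17rc and Il17re all lay within a 1.5-fold change. Il17rd, which also restrains FGF signalling, had 10.5 and 10.1 CPM in transgenic and 7.04, 8.12 and 10.2 CPM in wild-type corneas (0.29 ± 0.19, adjusted p = 0.860). Of the ligands, Il17a was at 0 and Il17b, Il17c, Il17f and Il25 had at most 7 counts in any cornea.

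Il20rb, a chain of the receptors for IL-19, IL-20 and IL-24, had 40.8 and 46.2 CPM in transgenic and 35.6, 44.6 and 44.2 CPM in wild-type corneas. Its partner Il20ra had 6.59 and 14.6 CPM in transgenic and 9.10, 9.84 and 9.52 CPM in wild-type corneas, so the transgenic corneas again stood on either side of a narrow wild-type range. Il10rb, shared by IL-10 and IL-22, had 8.79 and 11.3 CPM in transgenic and 7.15, 7.88 and 13.3 CPM in wild-type corneas. None of the 3 passed (adjusted p = 0.946, 0.951 and 0.970, edgeR).

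Il34, a ligand of the macrophage receptor Csf1r, had 3.47 and 3.66 CPM in transgenic and 4.01, 3.47 and 3.10 CPM in wild-type corneas, and Il16, which attracts CD4+ cells, had 1.85 and 2.29 CPM in transgenic and 2.46, 1.71 and 1.68 CPM in wild-type corneas. Il4i1, an enzyme that breaks down amino acids and carries an interleukin symbol by its induction, had 0.694 and 0.637 CPM in transgenic and 0.542, 0.294 and 0.637 CPM in wild-type corneas. All 3 overlapped between the groups.

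The 5 effectors of inflammation were tested and none passed. Nos2, the inducible nitric oxide synthase, had 53.5 and 59.3 CPM in transgenic and 96.7, 115.7 and 14.2 CPM in wild-type corneas. Both transgenic values lay inside the 8.14-fold range of the wild-type values, which wild-type cornea 3 set (log2 fold change -0.42 ± 0.96, adjusted p = 0.962). Without wild-type cornea 3 the log2 fold change was -0.91 (adjusted p = 0.164), and without wild-type cornea 2 it was 0.02. Ptgs2, the inducible cyclooxygenase, had 13.8 and 11.05 CPM in transgenic and 13.6, 9.004 and 10.9 CPM in wild-type corneas. Casp1, the protease that activates IL-1beta and IL-18, had 10.6 and 13.8 CPM in transgenic and 13.6, 15.02 and 14.2 CPM in wild-type corneas (-0.23 ± 0.16, adjusted p = 0.860). Nlrp3, the sensor that recruits caspase-1, had 5 to 13 counts per library and a log2 fold change of 0.33 ± 0.63. Tnf, read from 1 named isoform, had 0.116 and 0.350 CPM in transgenic and 0.794, 0.832 and 0.319 CPM in wild-type corneas, from 3 and 11 counts against 22, 17 and 7 (-1.43 ± 0.69, adjusted p = 0.820). Named isoforms held under 95% of the gene's counts in 16 of 43 other members, so the count of Tnf may be partial.

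**Figure D4:**
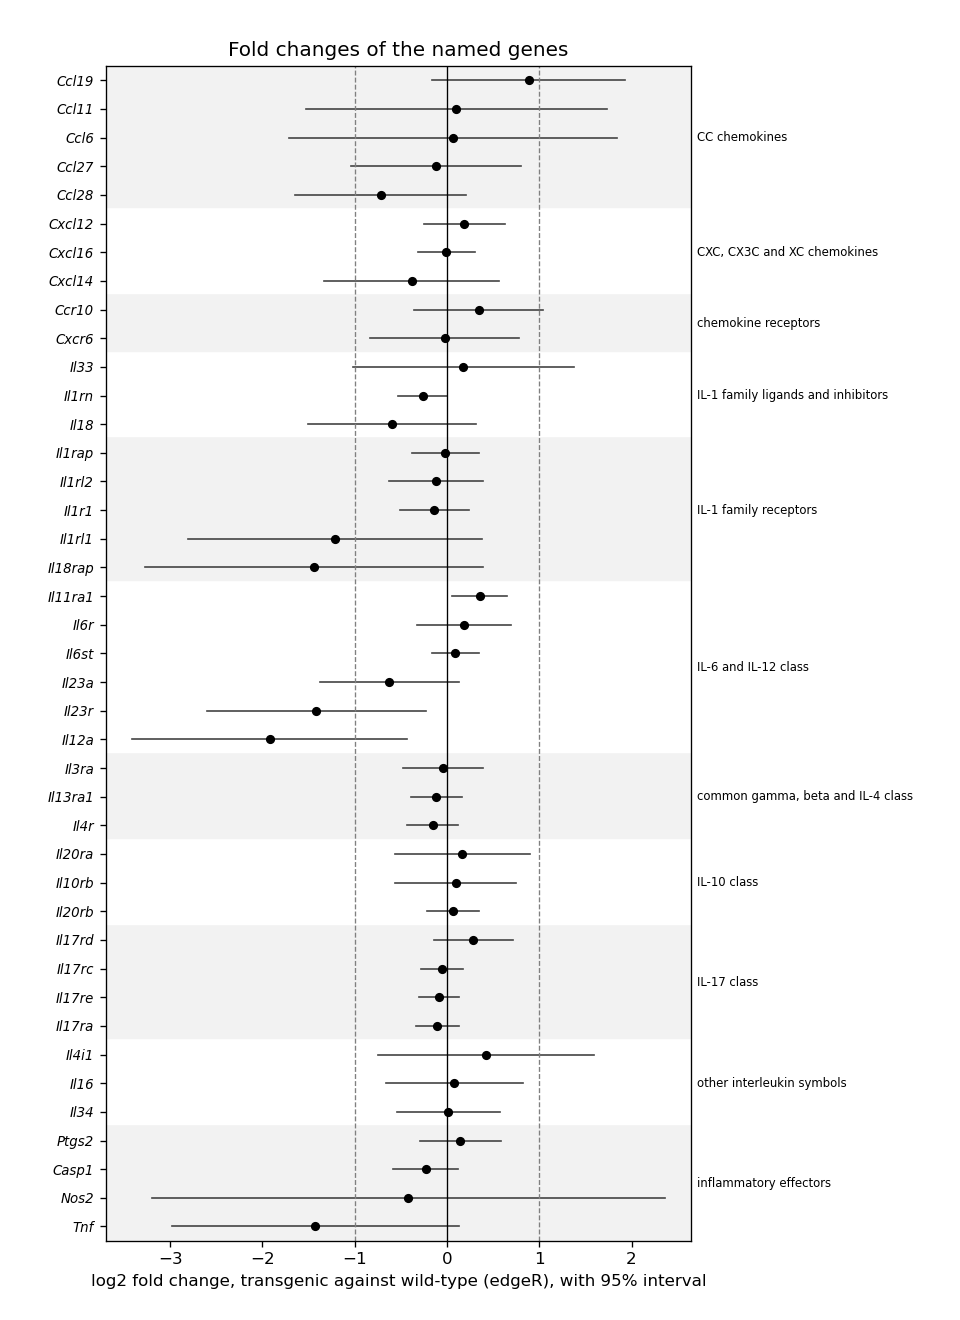
Log2 fold change of transgenic against wild-type corneas by edgeR, with its 95% interval, for the 41 members described by value, with dashed lines at a 2-fold change. The intervals of Il12a, Il23r and Il11ra1 leave out 0 before adjustment, and those of Il17rc, Il17re and Il17ra are among the narrowest.

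Several members varied widely between rats of a genotype, which is described here by counts without a test. Transgenic corneas 1 and 2 differed by more than 2-fold in 11 of the 63 tested members, or 17.5%, and in 3.90% of all genes tested. To set aside sparse counts, the same was counted at a mean of at least 5 CPM: there 5 of 30 members did so (Ccl6, Cxcl14, Il1a, Il20ra and Il33), or 16.7%, and 1.16% of 10108 genes. In 25 of these 30 members, or 83.3%, the transgenic corneas differed from each other by more than the genotype means did, and this held for 59.1% of genes at that level. For Ccl6 the difference of the mean log2 values was -0.23, opposite in sign to its edgeR fold change. The wild-type corneas spanned more than 2-fold in 12 of the 63 tested members, or 19.0%, and in 8.76% of all genes tested. Wide ranges were thus seen in both genotypes. A range over 3 corneas tends to exceed a gap between 2, so these shares cannot rank the genotypes by spread. At a mean of at least 5 CPM the wild-type corneas spanned more than 2-fold in 2 of the 30 members (Il18 and Nos2), or 6.67%, and in 1.69% of genes. Of the 5 members with a transgenic gap over 2-fold at that level, Ccl6, Il20ra and Il33 were higher in transgenic cornea 2 than in cornea 1, and Cxcl14 and Il1a were lower. The 4 conjunctival and limbal markers in the table summed to 2904 and 5512 CPM in transgenic corneas 1 and 2 and to 2628 to 4197 CPM in wild-type ones, and the corneal epithelial markers to 120580 and 95588 CPM and to 103497 to 116938 CPM. Their part was not tested.

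**Figure D5:**
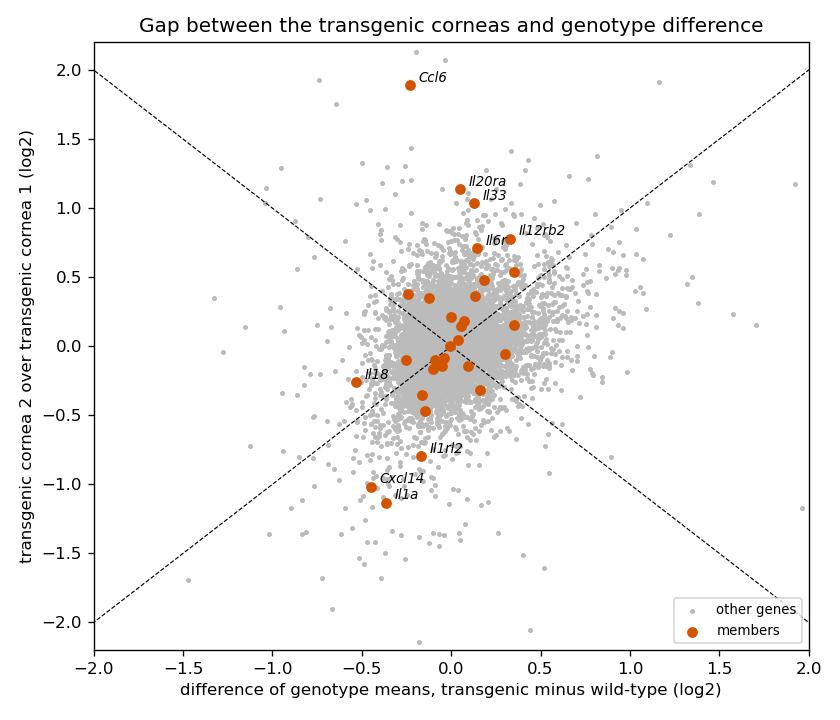
Log2 ratio of transgenic cornea 2 over transgenic cornea 1 against the difference of genotype means on the log2 scale (with 0.1 CPM added), for genes with a mean of at least 5 CPM (orange, 30 members; grey, other genes, of which 20 fall outside the axes); dashed lines mark equal size. Ccl6 lies near the top, and 25 of the 30 members lie in the upper and lower sectors, where the gap between the transgenic rats exceeds the genotype difference.

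Among genes that work beside the members, 0 were called in each list, against 0.00752% of all genes tested. An unadjusted p under 0.05 (edgeR) held for 10% to 25% of the tested genes in every list but other cytokines, where it was 0%. These shares rest on 2 or 3 genes per list. They were 2 of 20 cytokine receptors, 3 of 30 NF-kappaB and Toll genes and 2 of 19 JAK-STAT genes. The rest were 3 of 12 inflammasome partners and 2 of 13 prostaglandin genes. The share was 6.33% over all genes tested, of which 6407 were higher and 6898 lower in transgenic corneas. Of 30 tested genes of NF-kappaB and IL-1 or Toll receptor signalling, 10 were higher and 20 lower (median log2 fold change -0.06). Its members of smallest p were Tlr2 (11.4 and 14.2 CPM in transgenic against 16.6, 21.1 and 14.4 CPM in wild-type corneas) and Tlr3 (26.3 and 33.7 CPM against 24.3, 24.0 and 15.9 CPM), which sense bacterial lipoproteins and double-stranded RNA. Of 19 JAK-STAT genes 6 were higher and 13 lower, with a median of -0.01. Ptpn6, a phosphatase that dampens cytokine receptors, had 29.0 and 25.2 CPM in transgenic and 45.7, 43.7 and 45.4 CPM in wild-type corneas (-0.73 ± 0.11, adjusted p = 0.2498), and Stat2, a mediator of interferon signals, 63.2 and 58.4 CPM against 71.3, 70.7 and 73.5 CPM.

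Among 12 tested partners of the inflammasome 9 were higher and 3 lower, with a median of 0.13. Gsdmd, which forms the pore that lets IL-1beta out, had 5.01 and 5.32 CPM in transgenic and 3.68, 2.79 and 3.42 CPM in wild-type corneas (0.64 ± 0.24, adjusted p = 0.712), and the adaptor Pycard 63.6 and 77.6 CPM against 64.4, 52.5 and 47.9 CPM. Of 13 prostaglandin genes 6 were higher and 7 lower, with a median of -0.10. Slco2a1, the prostaglandin transporter, had 69.6 and 48.7 CPM in transgenic and 98.3, 116.2 and 86.2 CPM in wild-type corneas, without overlap (-0.76 ± 0.19, adjusted p = 0.501), and Hpgds, a prostaglandin D synthase, 0.270 and 0.414 CPM against 1.84, 1.61 and 0.319 CPM. Cytokine receptors outside the symbol rule were 11 higher and 9 lower of 20 (median 0.04), with Osmr at 40.1 and 31.2 CPM against 50.1, 39.5 and 48.1 CPM and Ifnar1 at 82.7 and 77.8 CPM against 66.6, 69.2 and 71.9 CPM. Other cytokines were 5 higher and 5 lower of 10, with Lif at 4.36 and 4.74 CPM against 6.25, 5.33 and 7.51 CPM and Csf1 at 9.52 and 10.1 CPM against 9.93, 6.66 and 7.15 CPM.

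The promoters of the members were searched for letters that the factors of these pathways are known to bind. RefSeq windows of 300 bases (250 before and 50 after the gene start, assembly GRCr8) were at hand for 98 of the 129 members, and both strands were read. The NF-kappaB-type motif, GGG then any 2 bases then TTTCC, was in 11 of the 98 windows (11.2%), against 1.51% of 27457 windows of all genes. A stricter form with A as the first of those 2 bases, all of whose matches are matches of the wider form, was in 4 (4.08% against 0.371%), and GGAANTTCC, which can overlap both, in 5 (5.10% against 0.852%). The STAT-type motif TTCNNNGAA was in 14 (14.3% against 8.68%) and the AP-1 motif TGACTCA in 10 (10.2% against 4.53%). The half-site AGAACA of corticosteroid receptors was in 19 (19.4% against 20.1%), and the full site, AGAACA then any 3 bases then TGTTCT, in 0 (against 2 of all windows). Of the 11 windows with the first motif 5 belonged to tested members, and these are shown, 5′ to 3′ on the strand of the gene, with its matches in capitals.
Il23r, minus strand, chr4:98003710-98004009: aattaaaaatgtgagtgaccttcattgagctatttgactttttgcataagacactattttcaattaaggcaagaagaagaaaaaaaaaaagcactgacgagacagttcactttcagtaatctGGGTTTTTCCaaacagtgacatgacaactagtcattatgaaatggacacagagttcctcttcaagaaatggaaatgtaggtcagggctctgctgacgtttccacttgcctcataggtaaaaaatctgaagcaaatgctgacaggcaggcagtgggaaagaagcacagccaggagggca
Il1rn, plus strand, chr3:27520072-27520371: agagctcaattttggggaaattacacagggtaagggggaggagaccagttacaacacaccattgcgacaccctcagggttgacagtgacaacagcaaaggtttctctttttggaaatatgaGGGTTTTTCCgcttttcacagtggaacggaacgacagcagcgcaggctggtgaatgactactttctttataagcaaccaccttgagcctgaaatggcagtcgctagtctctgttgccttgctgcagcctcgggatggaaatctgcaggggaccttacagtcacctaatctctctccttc
Cxcl1, minus strand, chr14:17479272-17479571: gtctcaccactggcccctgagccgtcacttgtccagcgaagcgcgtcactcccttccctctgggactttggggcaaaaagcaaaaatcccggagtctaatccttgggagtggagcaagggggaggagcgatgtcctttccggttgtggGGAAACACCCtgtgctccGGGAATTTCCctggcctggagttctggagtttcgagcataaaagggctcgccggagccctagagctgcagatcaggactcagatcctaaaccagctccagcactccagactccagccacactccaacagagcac
Cxcl6, minus strand, chr14:17596368-17596667: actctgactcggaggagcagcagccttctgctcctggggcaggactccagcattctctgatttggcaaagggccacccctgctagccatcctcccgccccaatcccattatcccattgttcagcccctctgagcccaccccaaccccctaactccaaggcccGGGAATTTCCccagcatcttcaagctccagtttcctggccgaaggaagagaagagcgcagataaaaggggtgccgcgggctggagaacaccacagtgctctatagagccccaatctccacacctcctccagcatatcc
Il4r, plus strand, chr1:189545525-189545824: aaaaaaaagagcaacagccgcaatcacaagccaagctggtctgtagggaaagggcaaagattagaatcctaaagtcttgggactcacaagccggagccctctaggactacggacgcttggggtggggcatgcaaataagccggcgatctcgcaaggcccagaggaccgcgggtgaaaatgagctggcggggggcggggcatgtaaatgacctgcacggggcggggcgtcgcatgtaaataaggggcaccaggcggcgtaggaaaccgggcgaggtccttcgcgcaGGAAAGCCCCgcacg
Il23r and Il1rn hold the same 10 letters at nearly the same place, bases 123 to 132 and 122 to 131 of the window. Those letters have T where the stricter form has A. Of the 5 members shown, only Cxcl1 and Cxcl6 hold the stricter form. Both genes were lower in both transgenic corneas than in any wild-type one, as were 10.7% of all genes tested. Neither passed the test (edgeR adjusted p = 0.731 for Il23r and 0.791 for Il1rn). Cxcl1, Cxcl6 and Il4r overlapped between the genotypes. The part of the motif in these values was not tested. Cxcl1 and Cxcl6, which attract neutrophils, hold 2 matches and 1 match, and the match of Il4r lies after the gene start. Log2 fold changes of these 5 members ran from -1.42 for Il23r to 0.16 for Cxcl6, with Cxcl1 at -0.38 ± 0.28. A match describes these letters and not a bound site.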

How the data were processed

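Whole corneas of 2 transgenic and 3 wild-type rats were sequenced. The authors deposited 1 table per gene and 1 per isoform of expected counts, estimated from the reads and not normalized, as the file headers and values show. The tools are named, with no role or order, in the submitters' processing notes: RSEM 1.2.28, STAR 2.5.3a, fastp, FastQC, edgeR 3.28.0 and DESeq2 1.26.0, with build rn6. The sources used here do not state strandedness, and reads of near-identical copies (Cxcl1, Cxcl2 and Cxcl3, and the CC chemokines) are split by estimate.

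Counts were rounded; Tnf, which the gene table lacks, was added from its named isoform. Genes passing the filterByExpr rule of edgeR 4.0.16 in R 4.3.3 (minimum count 10) were normalized by TMM and tested with the robust quasi-likelihood F test, two-sided, with Benjamini-Hochberg adjustment over all genes tested. Adjusted p-values are from this test unless another tool is named. The SE was taken from F and the log2 fold change. CPM uses TMM library sizes and is not scaled for length. Alternatives used DESeq2 1.42.0 and limma 3.58.1. The procedure was tested on simulated data in which the changed genes had a mean over 1 CPM. That run does not cover the 22 tested members with a mean under 1 CPM. No source says that the samples were taken on separate days or litters, so p-values measure the spread between these 5 corneas. Floors of 3 counts cover counting error only.

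The members and lists were chosen with earlier results of these data known. Values by cornea are given for the 12 tested members of smallest p and the 3 of highest mean CPM in each role group, and in pathway lists for the 2 genes of smallest p; 1 member that this rule names is counted but not reported here. Cxcl1, Cxcl2, Cxcl6, Il12b, Il17rb, Il1a, Il1b, Il2rg, Il6 and Nlrp3 were added after their values were seen.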

Additional observations from a re-analysis of the deposited data

How the results depend on the processing

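Members called stayed at 0 with RLE or upper quartile factors, DESeq2, limma voom, either other filter, isoform sums of all missing names or the gene table alone. The replicate block called 2 members, Nos2 (log2 fold change -0.91, adjusted p = 0.0415) and Il18 (-0.84, adjusted p = 0.0463), with 7 members at an unadjusted p under 0.05 and 16 genes in all; replicate 3 exists in wild-type only, so the block leaves wild-type cornea 3 out of the contrast. The labels give replicate numbers and name no pairing. Deviations of same-numbered corneas from their group means correlated at -0.005 and -0.11 over 13305 genes. The deviations of the 2 transgenic corneas from their mean are equal with opposite signs. The 2 correlations are thus not independent and cannot settle whether corneas are paired. Leaving out 1 cornea gave 0 to 1 members called, 2 to 15 with an unadjusted p under 0.05, 2 to 37 genes called and a median log2 fold change of the members of -0.0843 to 0.0347. The 15 came without transgenic cornea 1, beside 1131 genes, and 6 came without wild-type cornea 3, beside 1442 genes. DESeq2 called 56 genes, the fit without a filter 2 (with 5 members under 0.05), the fit with isoform sums 2, and the filter of 1 CPM in 2 libraries left 1 member under 0.05; the causes were not tested.

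Of the 41 members described by rule, 18 kept their direction in the leave-one-out fits in which they were tested. The other 23 did not, with log2 fold changes of -1.55 to 0.85 for Ccl11, -1.18 to 0.73 for Ccl6, -0.36 to 0.0896 for Ccl27, -0.0738 to 0.42 for Cxcl12, -0.97 to 0.04 for Cxcl14, -0.12 to 0.10 for Cxcl16, -0.17 to 0.24 for Cxcr6, -0.10 to 0.43 for Il10rb, -0.30 to 0.0597 for Il13ra1, -0.0818 to 0.30 for Il16 and -0.12 to 0.0199 for Il17rc. The ranges were -0.38 to 0.0851 for Il1r1, -0.14 to 0.0608 for Il1rap, -0.56 to 0.23 for Il1rl2, -0.52 to 0.63 for Il20ra, -0.0233 to 0.17 for Il20rb, -0.43 to 0.61 for Il33, -0.0677 to 0.13 for Il34, -0.0740 to 0.00352 for Il3ra, -0.33 to 0.0119 for Il4r, -0.21 to 0.51 for Il6r, -0.91 to 0.0242 for Nos2 and -0.0127 to 0.32 for Ptgs2. Directions also turned with upper quartile factors for Cxcl16 (0.0120) and Il1rap (0.00059), with limma voom for Ccl11 (-0.26), Ccl6 (-0.20), Cxcr6 (0.0172), Il1rap (0.0118) and Nos2 (0.0484), and with the replicate block for Ccl11 (-0.23), Ccl6 (-0.21), Cxcr6 (0.24), Il1rap (0.0684) and Il34 (-0.0673). Apart from Ccl6 without either transgenic cornea, none of these values passed its test. Depth limits the 66 members that were not tested.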
